A study of Caenorhabditis elegans with 6 samples.

Results

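The GATA-bearing single-gene promoter peaks are 401 places in the Caenorhabditis elegans genome where a peak called for the transcription factor ELT-3 lay in the promoter of 1 protein-coding gene and on a GATA site. The authors' list from the pooled reads holds 14525 nuclear peaks, and the strongest 21.6% of them, called the strongest pooled peaks here, were searched. A peak was kept when its summit lay from 1000 bp upstream to 200 bp downstream of a 5′ end of exactly 1 protein-coding gene, when a WGATAR site (GATA with A or T before it and A or G behind it, on either strand) lay wholly within 50 bp of the summit, and when no tRNA, snoRNA or snRNA gene lay within 200 bp. A further 651 peaks met the same conditions but lacked the site, and 265 lay in promoters shared by several genes. The GATA-bearing peaks were thus chosen by the strength of the pooled peak, its position and the presence of a site, and those values are given as a description, with no test.

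The study profiled ELT-3 by chromatin immunoprecipitation and sequencing (ChIP-seq) of sonicated chromatin from whole larvae at the third larval stage (L3), mixed in sex. All animals were of strain OP75, genotype unc-119(ed3) III; wgIs75, a stable transgenic line in which ELT-3 carries GFP and FLAG at its C-terminus, and there was no second condition and no untagged animal. The 6 libraries came from 4 biological replicates numbered 1, 2, 4 and 5, and the 3 libraries of replicate 2 are technical repeats that count as 1. Which list belongs to replicate 2 was read from the listings deposited with its libraries. No source used here tells if each replicate was a culture of its own, and p-values therefore measure a spread that may be technical in part.

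GATA factors are zinc finger proteins that bind the short DNA word they are named after. ELT-3 is a GATA factor of the worm's main epidermis, the hypodermis, and not the only one of the epidermis. The hypodermis is a syncytial layer that secretes the collagen cuticle. It is also a seat of metabolism and of responses to osmotic stress and wounding. Some other GATA factors of the worm act in the intestine, where ELT-2 binds TGATAA words, so a GATA site does not by itself name the factor. Because whole animals were used, occupancy in a few cells and weak occupancy in many cannot be told apart.

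The sequences of the strongest GATA-bearing peaks show what such a site looks like in place. Each of the following is the summit base with 50 bp on either side on ce11, read 5′ to 3′ on the strand of the gene, with WGATAR sites of either strand in capitals. A site on the gene's own strand reads GATA, and one on the opposite strand reads TATC. The first 8 are from the 12 strongest members, paqr-1 is 1 of the 12 members with 4 sites, the most found, and the pair dpy-10 and dpy-2 stands for the furrow collagens of the cuticle.
F45D3.4, chrV:12553526-12553626, minus strand: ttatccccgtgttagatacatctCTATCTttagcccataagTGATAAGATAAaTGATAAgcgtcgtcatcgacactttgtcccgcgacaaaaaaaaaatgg
F16G10.14, chrII:2399900-2400000, minus strand: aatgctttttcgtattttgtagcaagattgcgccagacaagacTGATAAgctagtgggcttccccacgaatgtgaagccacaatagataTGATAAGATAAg
cdo-1, chrX:864510-864610, minus strand: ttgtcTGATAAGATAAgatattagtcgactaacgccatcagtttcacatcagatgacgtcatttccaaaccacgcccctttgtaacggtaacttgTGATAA
lea-1, chrV:10012749-10012849, plus strand: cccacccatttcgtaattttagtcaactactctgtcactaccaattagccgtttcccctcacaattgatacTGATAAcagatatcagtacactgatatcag
dpyd-1, chrX:5467458-5467558, plus strand: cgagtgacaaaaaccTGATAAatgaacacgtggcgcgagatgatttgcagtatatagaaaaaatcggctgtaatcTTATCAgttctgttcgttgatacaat
nhr-119, chrII:2800950-2801050, minus strand: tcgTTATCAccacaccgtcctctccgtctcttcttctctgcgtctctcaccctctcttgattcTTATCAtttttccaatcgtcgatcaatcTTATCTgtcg
gana-1, chrV:12086381-12086481, plus strand: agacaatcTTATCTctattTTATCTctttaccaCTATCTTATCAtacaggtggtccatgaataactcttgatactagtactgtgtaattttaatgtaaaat
mthf-1, chrII:7776897-7776997, minus strand: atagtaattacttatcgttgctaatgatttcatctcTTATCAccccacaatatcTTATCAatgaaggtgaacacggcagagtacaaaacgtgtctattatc
paqr-1, chrIV:6555067-6555167, minus strand: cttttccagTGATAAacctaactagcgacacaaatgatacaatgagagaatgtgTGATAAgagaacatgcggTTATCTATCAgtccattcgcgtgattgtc
dpy-10, chrII:6712552-6712652, minus strand: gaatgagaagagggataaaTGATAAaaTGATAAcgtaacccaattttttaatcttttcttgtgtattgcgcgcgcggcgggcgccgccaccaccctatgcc
dpy-2, chrII:6713990-6714090, plus strand: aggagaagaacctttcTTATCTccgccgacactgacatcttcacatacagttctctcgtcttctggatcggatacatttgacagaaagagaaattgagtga

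The replicates did not weigh equally in these peaks. Of all the strongest pooled peaks, 26.6% had within 100 bp a summit from among the same number of strongest peaks of replicate 1, against 27.9% for replicate 2, 54.5% for replicate 4 and 47.7% for replicate 5. Replicates 1 and 2 thus stood apart from replicates 4 and 5, and each result is given by replicate for that reason. Read depth is unknown, since the lists hold no read counts. The tagged gene lay in a dense region: 9 of the strongest pooled peaks, 2 of them GATA-bearing single-gene promoter peaks, lay within 20 kb of the middle of elt-3, while the median over 40 kb windows of the genome was 1. The part that transgene copies play in the elt-3 values was not tested.

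GATA sites were more frequent at stronger peaks. Among all single-gene promoter peaks of the pooled list, the share with a site was 41.5% in the strongest block, which is the authors' optimal list (95% Wilson interval 36.5 to 46.6%). It was 38.4% at ranks 1048 to 2094 and 34.1% from rank 2095 to the strength threshold. Below the strength threshold it was 27.7% at ranks 3142 to 6282, 24.8% at ranks 6283 to 9423 and 23.1% at ranks 9424 to 14525. A site lay in 21.1% of windows of the same length centred on promoter positions and in 19.8% of those over the whole nuclear genome. The weakest pooled peaks were thus close to promoter sequence at large.

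The same fall was seen inside each replicate's own list. Among as many peaks as the optimal list holds, the strongest of each replicate, the share was 32.8% in replicate 1, 28.8% in replicate 2, 47.8% in replicate 4 and 43.5% in replicate 5. At ranks 10001 and beyond it was 20.2%, 21.1%, 21.8% and 22.9% in the same order. Down to the rank of the strength threshold in each replicate, 238, 226, 408 and 381 were GATA-bearing single-gene promoter peaks, which were 27.9%, 26.3%, 38.8% and 36.3% of the single-gene promoter peaks in replicates 1, 2, 4 and 5. Replicates 4 and 5 held more of them at every rank block than replicates 1 and 2.

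**Figure D1:**
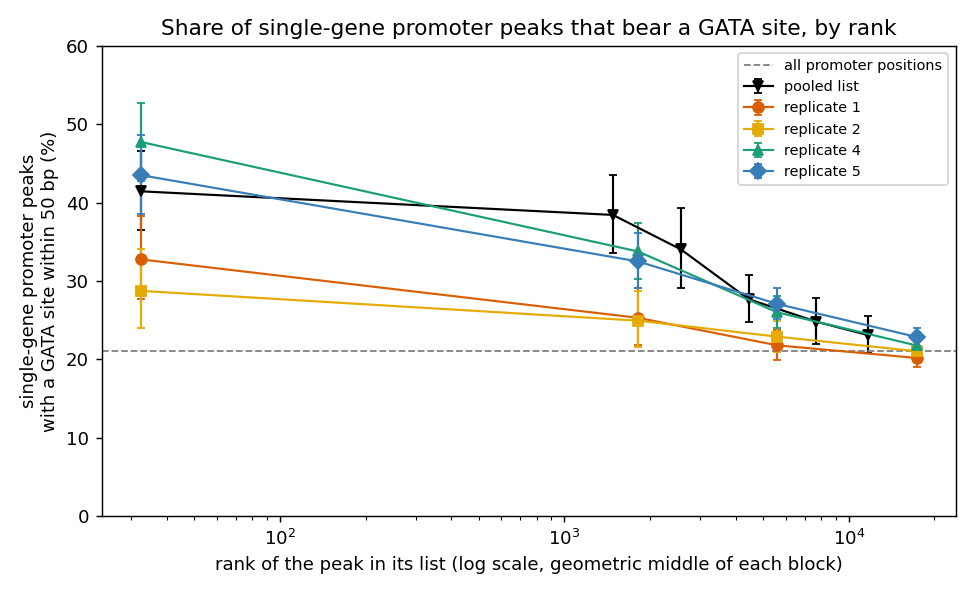
Share of single-gene promoter peaks with a GATA site within 50 bp of the summit (vertical axis, percent, with 95% Wilson intervals) against rank in the list (horizontal axis, log scale) for the pooled list and the 4 replicates. All 5 lines fall towards the dashed level of all promoter positions, 21.1%, and the lines of replicates 4 and 5 lie above those of replicates 1 and 2.

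Sites gathered at the summit. Over all 1052 single-gene promoter peaks, whether or not they bore a site, the density was 6.56 sites per kb within 10 bp of the summit and 6.99 sites per kb from 10 to 20 bp. It was 4.71 sites per kb from 50 to 60 bp, just outside the window used for choosing, and 2.95 sites per kb from 490 to 500 bp. Among the 401 members the centre of the nearest site lay within 10 bp of the summit in 122, from 10 to 20 bp in 110 and from 40 to 50 bp in 36, with a median of 16.5 bp. From the summit of the matching replicate peak the median was 29.5 bp in replicate 1 (89 members), 30.5 bp in replicate 2 (105 members), 23.5 bp in replicate 4 (259 members) and 22.5 bp in replicate 5 (215 members). The rule required a site within 50 bp of each member's pooled summit, and the nearest site was taken. These distances of the members are therefore largely set by the choice and are a description only.

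**Figure D2:**
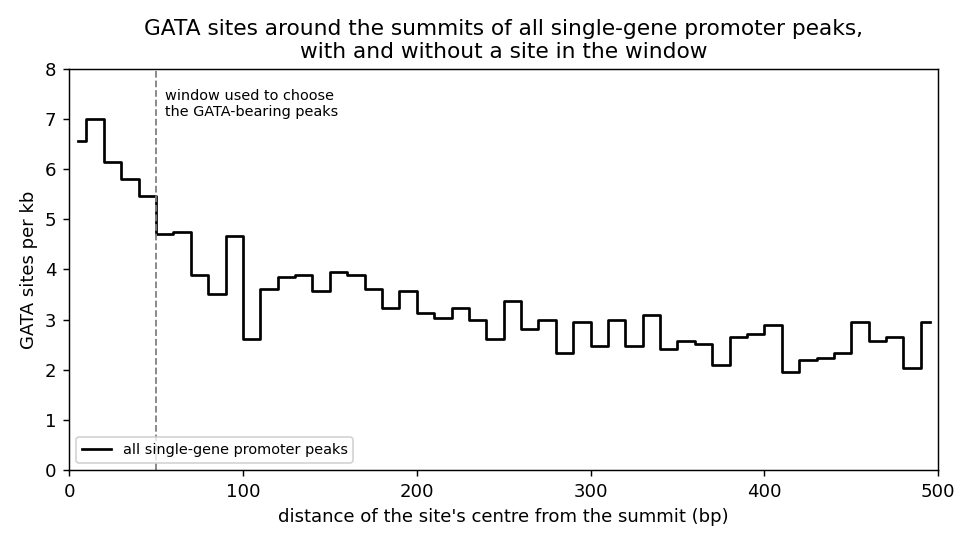
Density of GATA sites (vertical axis, sites per kb) by distance from the summit (horizontal axis, bp, in steps of 10) over all 1052 single-gene promoter peaks. The line starts at 6.56, is 4.71 just beyond the dashed edge of the window and 2.95 at the far end.

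The members held 624 sites in their windows. A single site was present in 234 members, 2 sites in 123, 3 sites in 32 and 4 sites in 12. Neighbouring sites were often close together: the median distance from start to start was 19 bp, and 118 of 223 neighbouring pairs were at most 20 bp apart. Of the 12 members with 4 sites, the 5 with the highest signal were at dhp-1, F45D3.4, gana-1, paqr-1 and hprt-1.

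TGATAA, the word preferred by the intestinal factor ELT-2, made up 50.3% of the members' sites (Wilson 46.4 to 54.2%), and 247 members carried it. It made up 44.2% of the sites 150 to 500 bp away from the same summits and 45.1% of the sites in all promoters. AGATAA made up 22.1%, AGATAG 14.4% and TGATAG 13.1% of the members' sites. In the replicates' own lists the TGATAA share was 49.5%, 49.3%, 49.4% and 48.7%. The variant of the core thus differed little between the sites at summits and those elsewhere, and the next base differed more.

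The base that follows the site was G at 40.4% of the members' sites (Wilson 36.6 to 44.3%). It was G at 16.5% of the sites 150 to 500 bp from the same summits (14.1 to 19.1%) and at 18.1% of the 60319 sites in all single-gene promoter windows. The full word TGATAAG was 25% of the members' sites, against 8.89% in the flanks and 9.10% in all single-gene promoter windows. In the own lists of replicates 1, 2, 4 and 5 it was 16.9%, 16.1%, 22% and 20.8% of the sites at summits. In the flanks of these lists it was 10.8%, 10.5%, 8.43% and 8.32%, so the excess was smaller in replicates 1 and 2. The base before the site differed less, with A directly in front at 34.1% against 28.6% of all promoter sites, while A one base further out was present at 47.4% against 36%. The rule used only the 6 bases of the site, so neither neighbour was fixed by it.

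In each replicate's own list the excess of G after the site had the same direction. It followed 28.9% of sites at summits and 22.8% in the flanks in replicate 1, 27% and 21.8% in replicate 2, 35.8% and 18.7% in replicate 4, and 37% and 17.4% in replicate 5. The difference was above 0 in all 4 replicates, with a mean of 12 percentage points ± 7.40 (SD, n = 4; exact two-sided sign-flip test, p = 0.13, adjusted p = 0.15 over 6 comparisons added after the values were seen). With 4 replicates 0.13, rounded, is the smallest p that this test can give, so no comparison over the replicates can pass 0.05. T was less frequent than at all promoter sites at each of the 4 bases before and after the members' sites, and the part that base composition plays in the excess of G was not tested.

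**Figure D3:**
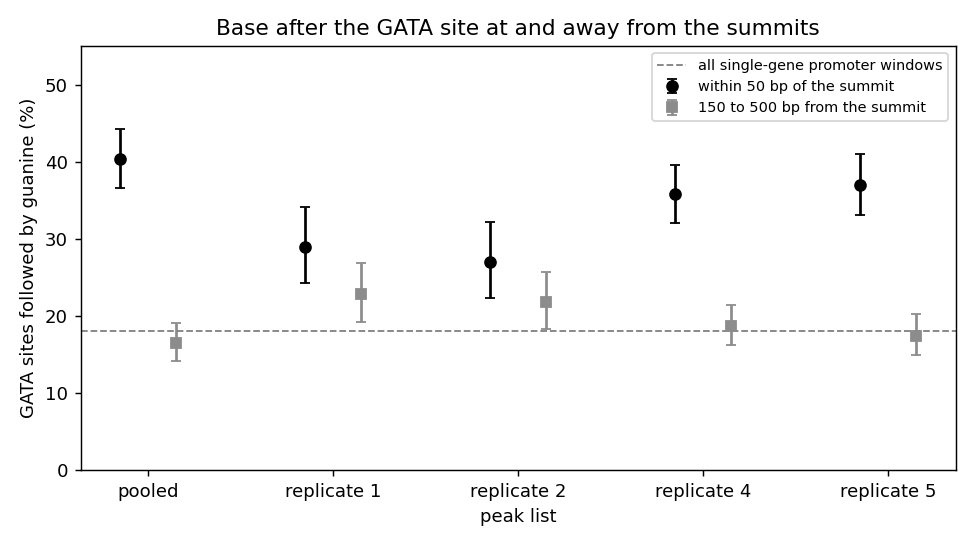
Share of GATA sites followed by guanine (vertical axis, percent, with 95% Wilson intervals) within 50 bp of the summit (circles) and 150 to 500 bp away (squares), for the 401 pooled members and for each replicate's own list. The circles of the pooled members and of replicates 4 and 5 lie clear of the squares, and the intervals overlap in replicates 1 and 2.

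Some members carried sites that run into each other, in which the last A of one site is the first base of the next, as in the word TGATAAGATAA printed above for F45D3.4, F16G10.14 and cdo-1. Such overlapping sites on 1 strand were present within the window of 22 members (5.49%), and the word TGATAAGATAA in 16. Of all members' sites 4.33% ran on into another site in this way, against 0.315% of the 67207 sites in all promoters. The share was 1.54% in replicate 1, 1.64% in replicate 2, 3.07% in replicate 4 and 3.33% in replicate 5, each above the share of promoters at large. This arrangement was picked out after the sequences had been seen, and a G after the site is part of it. Among the 16 members with TGATAAGATAA were also prk-2 (a protein kinase), unc-43 (the calcium/calmodulin-dependent kinase CaMKII), gldc-1 (glycine decarboxylase), cyp-43A1 (a cytochrome P450) and nhr-258 (a nuclear hormone receptor).

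Members with more sites had the higher share of matches in each replicate. Members with 2 or more sites were matched within 100 bp by the strongest peaks of replicates 1, 2, 4 and 5 in 23.4%, 28.1%, 74.3% and 62.9% of cases, and members with 1 site in 21.4%, 24.8%, 57.7% and 47%. The difference was above 0 in all 4 replicates, with a mean of 9.44 points ± 7.84 (SD, n = 4; exact sign-flip test, p = 0.13, adjusted p = 0.15). It was 1.99 and 3.36 points in replicates 1 and 2, and 16.6 and 15.9 points in replicates 4 and 5. Members with the word TGATAAG exceeded the other members by 5.34 points ± 4.24 (SD, n = 4), with replicate 2 at −0.39 points (exact sign-flip test, p = 0.25, adjusted p = 0.25). The median pooled rank was 1209 for members with 2 or more sites and 1578 for those with 1.

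As a class, the members and the single-gene promoter peaks without a site differed in their share of matches by less than the spread between replicates. They were matched in 22.2% of cases by replicate 1, 26.2% by replicate 2, 64.6% by replicate 4 and 53.6% by replicate 5, and the peaks without a site in 26.7%, 24.9%, 52.2% and 47.6%. The mean difference was 3.78 points ± 7.16 (SD, n = 4; exact sign-flip test, p = 0.375, adjusted p = 0.469 over 5 comparisons), and it was −4.53 points in replicate 1 and 12.4 points in replicate 4. In 215 members (53.6%) the summit was matched in 2 or more replicates, against 47.2% of all the strongest pooled peaks. Without replicate 4 the share of members matched in 2 or more was 25.2%, and without replicate 5 it was 28.2%. Both replicates 4 and 5 matched 155 members and both replicates 1 and 2 matched 28. All 4 matched 14 members, and 39 were matched by none. The bases within 100 bp of the summits used for matching covered 0.630% of the genome in each replicate, which is not a chance level for summits in promoters. The pooled list holds the reads of all 4 replicates. A match is thus not independent of the choice of members and is a description.

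Members were of ordinary strength for the list. Their signal value, the peak strength deposited by the authors, had a median of 35.4 and ran from 26.2 to 130, and 148 members (36.9%) were in the authors' optimal list, against 33.3% of all the strongest pooled peaks. Just inside the strength threshold were M110.7 (signal 26.215, rank 3131) and C55A6.12 (signal 26.2002, rank 3137). Just outside it were srab-25 (signal 26.1827, rank 3143) and T04F8.2 (signal 26.1022, rank 3167), which met the other conditions.

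The summits lay a median of 279 bp upstream of the 5′ end whose promoter window holds them, the nearest such end where there are several, with the middle 50% between 94 and 596 bp, and 358 members lay upstream of it. Peaks without a site had a median of 244 bp. In the replicates' own lists the GATA-bearing peaks were farther by a mean of 18.6 bp ± 25.8 (SD, n = 4; exact sign-flip test, p = 0.25, adjusted p = 0.417), less than the spread between replicates. The differences were −2.5, 55.5, 16.5 and 5 bp in replicates 1, 2, 4 and 5, and the mean was 6.33 bp without replicate 2. Between annotated genes lay 239 members (59.6%), in an intron of the own gene 85 (21.2%), and in a coding exon of the own gene 14 (3.49%). For 7 members the nearest 5′ end belonged to another gene, as for dpy-10, and 342 still had a single gene when the window was widened to 2000 bp upstream and 500 bp downstream.

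In each replicate introns held a larger share, and coding exons a smaller share, of the GATA-bearing peaks than of those without a site. The share in an intron of the own gene was 25.6% against 15.6% in replicate 1, 21.2% against 18.6% in replicate 2, 22.3% against 14.9% in replicate 4 and 19.9% against 18% in replicate 5. The mean difference was 5.49 points ± 3.85 (SD, n = 4; exact sign-flip test, p = 0.13, adjusted p = 0.15). The share in a coding exon of the own gene was 8.82% against 13.5% in replicate 1, 7.96% against 16.1% in replicate 2, 2.45% against 5.60% in replicate 4 and 3.15% against 5.54% in replicate 5. It was lower in all 4 replicates, by a mean of −4.60 points ± 2.56 (SD, n = 4; exact sign-flip test, p = 0.13, adjusted p = 0.15). The part that sorting the peaks by a GATA site plays in the intron and exon shares was not tested.

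The orientation of the sites was close to that in promoters at large. The members' sites read GATA on the coding strand of the gene in 40.7% of cases (Wilson 36.9 to 44.6%), so that more of them read GATA on the opposite strand. The same share was 43.1% in the flanks and 43.7% in all single-gene promoter windows. In the replicates' own lists it was 40.6%, 40.5%, 39.2% and 36.1% at summits, lower than in the flanks by a mean of −3.35 points ± 2.88 (SD, n = 4; exact sign-flip test, p = 0.13, adjusted p = 0.15).

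Outside the sites, the windows of the members were lower in G and C than those without a site, with a mean content of 41.0% against 44.5%. In the replicates' own lists the difference was −0.619, −0.21, −2.06 and −2.58 points in replicates 1, 2, 4 and 5, a mean of −1.37 ± 1.13 (SD, n = 4; exact sign-flip test, p = 0.13, adjusted p = 0.417). The GC-rich word GAGCGC was present in 1.25% of members and 9.06% of peaks without a site, and CGTCTC in 6.73% and 14.6%. These are the largest differences among 6-mers with GATA sites masked, and the difference for each had the same sign in all 4 own lists. The rule sorted these windows by a word rich in A and T. The part that this sorting plays in base content and in these words was not tested. The word GAGAGA, common in worm promoters, was present in 21.4% of members and 19.8% of the others, a difference of 1.91 points ± 1.39 in the own lists (SD, n = 4; exact sign-flip test, p = 0.25, adjusted p = 0.417). On the X chromosome lay 95 members (23.7%), against 22.7% of peaks without a site and 13.7% of protein-coding genes, and the own lists differed by 0.629 points ± 1.89 (SD, n = 4; exact sign-flip test, p = 0.625, adjusted p = 0.625).

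The strongest member was at dhp-1, the dihydropyrimidinase of pyrimidine breakdown, on chromosome I with a signal of 130 and 4 sites. Of the regions within 100 bp of its summit, the strongest had rank 58 in replicates 2 and 4 and rank 5 in replicate 5. It had rank 2690 in replicate 1, so that replicate 1 was the weak one. F45D3.4 (signal 118) had ranks 21, 379, 46 and 85 in replicates 1, 2, 4 and 5, and F16G10.14 (signal 115) had ranks 36, 150, 29 and 91. These 2 genes, which have no functional name, were strong in every replicate.

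The peak of cdo-1, the cysteine dioxygenase that clears excess cysteine, had a signal of 96.7 and ranks 145, 437, 139 and 67. Its summit lay 982 bp upstream of the 5′ end and within an untranslated exon part annotated to lgl-1. The peak of lea-1, which encodes a late embryogenesis abundant protein of the kind that protects drying tissue, lay in an intron of the gene and had ranks 17396, 2127, 37 and 62. The peak of gana-1, a lysosomal glycosidase, had no region within 100 bp in replicate 1 and ranks 1249, 47 and 60 in replicates 2, 4 and 5. Both were thus strong in replicates 4 and 5 and weak or absent in replicate 1.

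The peak of the nuclear hormone receptor gene nhr-119 had ranks 6160, 26, 170 and 139, weak in replicate 1 alone. F26A3.4 had ranks 568, 94, 120 and 567, and Y41C4A.12 had ranks 240, 422, 276 and 56. The peak of sur-5, an acetoacetyl-CoA synthetase homologue first found through Ras signalling, had no region in replicate 1 and ranks 137, 67 and 522 in the others. The peak of mthf-1, the methylenetetrahydrofolate reductase, had ranks 1582, 73, 33 and 3032. Of the 12 strongest members 7 had a match among the strongest peaks of every replicate.

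Over all genes, 385 of 19973 protein-coding genes (1.93%) carried a member, 7.84% carried any of the strongest pooled peaks in a promoter, and 24.6% of the genes with any peak carried a member. Metabolic pathways stood out by eye among the names, and lists of their genes were then written, after the members had been seen, so that the counts below describe the choice and support nothing. In pyrimidine breakdown 3 of 6 genes carried a member. These were dpyd-1, the dihydropyrimidine dehydrogenase of the first step, dhp-1, the enzyme of the next step, and cdd-1, a cytidine deaminase that feeds the pathway. The stronger dpyd-1 peak (signal 87.7, 362 bp upstream of the 5′ end) had ranks 38 and 19 in replicates 4 and 5, rank 24220 in replicate 1 and no region in replicate 2. The cdd-1 peak had 3 TGATAA sites and ranks 1369, 246 and 3517 in replicates 1, 4 and 5, with no region in replicate 2.

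In the folate and methionine cycle 5 of 14 genes carried a member. These were mthf-1, sams-1, an S-adenosylmethionine synthetase, mtrr-1, the methionine synthase reductase, gldc-1, the glycine decarboxylase of the glycine cleavage system, and mel-32, the serine hydroxymethyltransferase. The second peak of mthf-1, 563 bp from the first, had ranks 597, 7116, 169 and 412. The sams-1 peak had ranks 392, 21890 and 825 in replicates 1, 4 and 5 and no region in replicate 2, so that replicates 4 and 5 differed there.

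Among genes of cysteine and hydrogen sulfide handling 5 of 12 carried a member. Beside cdo-1 these were rhy-1, a membrane protein that restrains the hypoxia factor HIF-1, cysl-1, a cysteine synthase homologue that acts in the same circuit, cbs-1, a cystathionine beta-synthase, and cth-2, a cystathionine gamma-lyase. The rhy-1 peak had ranks 558, 2110, 171 and 13761, weak in replicate 5 alone. The cbs-1 peak had ranks 18776, 785 and 1541 in replicates 1, 4 and 5, and the cysl-1 peak, with 4 sites and no TGATAA, had ranks 2884 and 1376 in replicates 1 and 4 and no region in replicates 2 and 5.

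Of 9 genes of polyunsaturated fatty acid synthesis 3 carried a member: fat-3, a delta-6 desaturase, elo-1, the elongase that acts next, and fat-4, the delta-5 desaturase that follows. The fat-4 peak, with 3 TGATAA sites, had ranks 466 and 1595 in replicates 4 and 5 and no region in replicates 1 and 2, and its summit lay 1244 bp from that of fat-3. The fat-3 peak had ranks 5154, 1341, 17814 and 4275, and the elo-1 peak 7334, 1304 and 28396 in replicates 2, 4 and 5, so that each was among the strongest peaks of 1 replicate. Of the other lists chosen in this way, UDP-glucuronosyltransferases, which conjugate small molecules for removal, had 7 of 67 genes, cytochromes P450 4 of 74, acyl-CoA synthetases 2 of 22, and propionate and branched-chain amino acid breakdown 2 of 8 (dbt-1 and pccb-1). The cytochrome P450 genes cyp-13A2, cyp-13A5 and cyp-13A8 are neighbours whose summits span 20081 bp.

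Cuticle genes carried members in small numbers, and the share over all genes was 1.93%. It was 33.3% for furrow collagens, 7.14% for other body-shape collagens and 4.49% for numbered cuticle collagens, higher in each, a difference that was not tested. Any of the strongest pooled peaks lay in a promoter of 50%, 21.4% and 8.33% of these lists, against 7.84% of all genes. Of 6 furrow collagens, which line the circumferential furrows of the cuticle, 2 carried a member (dpy-10 and dpy-2, whose summits lay 1438 bp apart). The dpy-10 peak had ranks 3592, 496, 182 and 199, and the dpy-2 peak ranks 228, 21276, 392 and 851. The summit of dpy-10 lay in an intron of T14B4.19, whose 5′ end was the nearest. Of the numbered cuticle collagens 7 of 156 carried a member, led by col-144 (ranks 4331, 3104, 1463 and 1575), col-93 and col-91, and of other body-shape collagens 1 of 14 (sqt-2). No cuticlin among 35 did, which allows a share of up to 8.57%.

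Genes of molting, of the apical matrix and of epidermal attachment gave higher shares than the 1.93% of all genes, a difference that was not tested. These lists were also richer in strong peaks of any kind. Any of the strongest pooled peaks lay in a promoter of 26.9% of molting and apical matrix genes. The same share was 21.1% for junction and attachment genes and 7.84% for all genes. Among molting and apical matrix genes 3 of 26 carried a member: sym-1, a leucine-rich repeat protein of the apical matrix, ptr-18, a Patched-related protein that also made up the single member among 85 hedgehog-related genes, and mlt-8, a gene needed for molting. Among junction and attachment genes 3 of 19 did: let-805, the myotactin of epidermal attachments, eff-1, the cell fusion protein, and let-413, the Scribble homologue of the basolateral membrane. The collagen processing list had 1 of 12, mlt-7, a peroxidase that cross-links cuticle. The pooled ranks of these peaks ran from 496 at sym-1 to 2928 at let-413. In replicate 4 the eff-1 peak had rank 1157 and the let-413 peak rank 1468, and neither had a region in any other replicate.

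Stress and immune genes of the epidermis gave 3 of 9 for osmotic stress and 3 of 15 for immune and wound signalling. Antimicrobial peptides gave 1 of 22 (cnc-2) and oxidative stress 1 of 12 (wdr-23). The shares were 33.3%, 20%, 4.55% and 8.33% in this order, against 1.93% of all genes, a difference that was not tested. These lists were also richer in strong peaks of any kind, which lay in a promoter of 33.3%, 40%, 22.7% and 16.7% of their genes. The same share was 7.84% for all genes. The osmotic genes were osm-11, a secreted Notch co-ligand whose loss raises osmotic resistance, gpdh-1, the glycerol-3-phosphate dehydrogenase that makes the osmolyte glycerol, and wnk-1, a kinase of the volume response. All 3 genes of the osmotic list with any of the strongest pooled peaks in a promoter carried a member. Each of them had a peak in a promoter not shared with another gene. The share was 24.6% over all genes with a peak and 39.7% over those with a peak in an unshared promoter. The difference was not tested. The peaks of the osmotic genes were not alike: osm-11 had rank 88 in replicate 2 and no region in the other replicates, gpdh-1 had ranks 3990 and 259 in replicates 4 and 5 alone, and wnk-1 had ranks 1965, 2180 and 3246 in replicates 2, 4 and 5. The immune genes were dcar-1, the receptor that senses cuticle damage, nipi-3, a Tribbles-like kinase, and sta-2, a STAT-like factor.

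Among regulators, the GATA factors themselves gave 1 of 11, elt-3, with its peak in an intron 599 bp upstream of a 5′ end and ranks 575, 57, 303 and 453. The list of epidermal regulators added nhr-25, a nuclear receptor of epidermal development, with ranks 836, 617, 1605 and 2061, so that both peaks were found in all 4 replicates. Nuclear hormone receptor genes gave 13 of 269 (4.83%), led by nhr-119, nhr-43 and nhr-25, and homeobox genes 1 of 63 (1.59%, ceh-79). The TGF-beta body size pathway gave 2 of 12: sma-9, a Schnurri-like transcription factor (ranks 364, 11158, 408 and 896), and drag-1, a co-receptor of the repulsive guidance molecule family. Heterochronic genes gave 2 of 10 (20%, daf-12 and lin-28) and insulin signalling 1 of 12 (8.33%, daf-2). Wnt signalling gave 0 of 19, which allows a share of up to 15.8%. Shares were 9.09% for GATA factors, 11.1% for epidermal regulators and 16.7% for the TGF-beta pathway, against 1.93% of all genes. Any of the strongest pooled peaks lay in a promoter of 70% of heterochronic genes, 33.3% of TGF-beta genes and 27.8% of epidermal regulators. The same share was 11.5% for nuclear hormone receptors, 4.76% for homeobox genes and 7.84% for all genes. These differences were not tested.

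Any of the strongest pooled peaks lay in a promoter of 43 of 78 ribosomal protein genes, and only rpl-32, rpl-14 and rpl-24.2 carried a member, 6.98% of those with a peak against 24.6% over all genes with a peak. Chaperone genes had a peak in 10 of 19 cases and a member in none, which allows a share of up to 15.8%. These counts of genes with a peak include promoters shared by several genes, where a GATA-bearing peak is not a member. Among genes with a peak in a promoter of their own, with or without a site, 3 of 12 ribosomal protein genes (25%) and none of 4 chaperone genes carried a member, against 385 of 970 over all such genes (39.7%). The same count was 3 of 3 for junction genes, 3 of 6 for molting and apical matrix genes, 7 of 12 for numbered collagens and 13 of 24 for nuclear hormone receptors. It was 2 of 6 for heterochronic genes, 1 of 4 for collagen processing, 1 of 2 for antimicrobial peptides and 0 of 1 for cuticlins. The difference between lists was not tested.

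Markers of other tissues carried no member. There were 0 of 23 intestinal, 0 of 20 body wall muscle, 0 of 13 pharyngeal, 0 of 23 neuronal and 0 of 24 germline genes, which allow shares of up to 13%, 15%, 23.1%, 13% and 12.5%. Any of the strongest pooled peaks lay at 1 intestinal, 1 muscle, 2 neuronal and no pharyngeal or germline gene of these lists. At a background of 1.93% lists of this size hold 0 or 1 member, so the counts do not separate tissues.

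**Figure D4:**
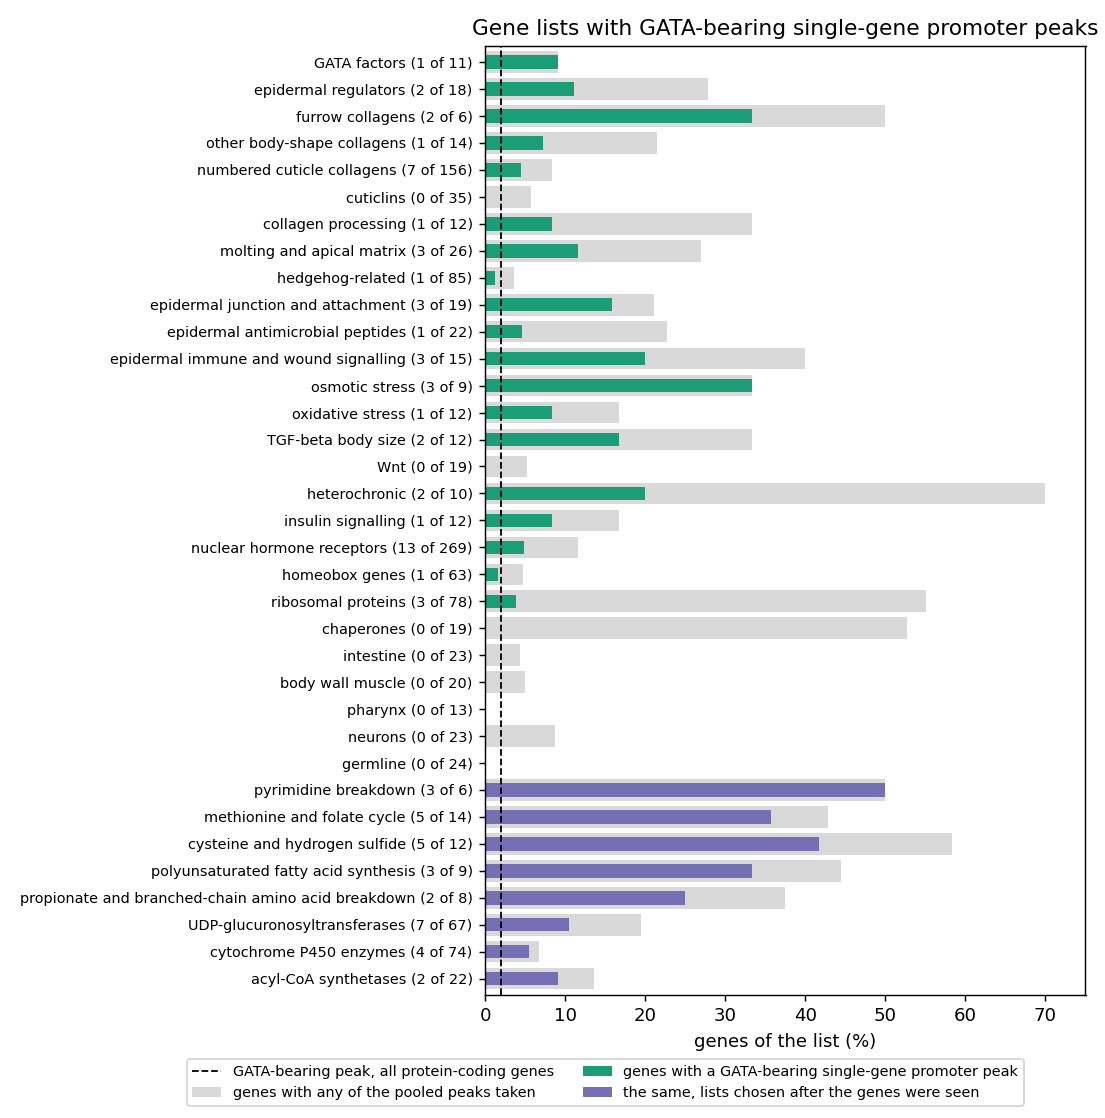
Percent of the genes of each list (vertical axis) with a GATA-bearing single-gene promoter peak (coloured bars) and with any of the strongest pooled peaks in a promoter (grey bars). The dashed line marks 1.93%, the share of all protein-coding genes with such a peak, and the purple lists were chosen after the genes had been seen.

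Of the 385 genes, 16 had 2 members. The closest pair of summits was at cwf-19L2, a homologue of a yeast splicing protein, 434 bp apart, and the farthest at acs-1, an acyl-CoA synthetase of branched-chain fatty acid use, 2346 bp apart. At dpyd-1 the second summit lay 540 bp from the first, inside the gene, and had ranks 1139, 3046, 15085 and 1620, weak in replicate 4 where the first was strong. At atf-7, a bZIP factor of immune signalling, the stronger peak had ranks 664, 1022, 978 and 1033, the most even among the named peaks, and the weaker had ranks 7078, 22052, 409 and 17561. At F31F7.1 both peaks were strong in replicate 4, at ranks 181 and 137, and at oatr-1, an ornithine aminotransferase, the stronger had ranks 18815, 26049, 163 and 52. The remaining genes were mthf-1, D2030.2, nhr-43, pix-1, F17H10.2, mekk-3, C34B4.2, pmp-2, gldc-1 and sir-2.2. In all, 28 members had another member within 1000 bp.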

How the data were processed

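The data are peak lists from ELT-3 ChIP-seq of whole L3 larvae, 4 biological replicates in 1 group. The signal value of each peak is the strength deposited by the authors, per the file headers of the listings, and here it only orders the peaks of a list; summit positions are as deposited. Lists of the replicates held 30000 regions each and were written as input for reproducibility analysis, per the file headers. The listings name a control from a separate experiment for each list, not used here. No source used here gives the aligner, the peak caller or the read depths. With depth unknown, the number of peaks and the replicate spread set the precision. Intervals cover counting error only.

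The 3141 strongest pooled peaks are 3 times the 1047 of the optimal list. Summits were placed on WBcel235, which is ce11, with the RefSeq genome sequence and the Ensembl release 115 annotation, and coordinates count from 1. Motifs were searched as exact words on both strands. The 6-mers were counted with GATA sites masked. A replicate's own list means its 3141 strongest regions put through the same rule. Matching used the strongest summit within 100 bp, and the ranks given for named peaks are those of that summit. A difference over the replicates was tested by the exact two-sided sign-flip permutation test (smallest p 0.125 with 4 replicates), with Benjamini-Hochberg adjustment over 5 comparisons and, separately, over 6 comparisons added after the values were seen. The scripts (Python 3.11.15, numpy 2.4.6, scipy 1.17.1) were tested on simulated data.

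The members and gene lists were chosen with earlier results of these data known. The genes named are those of the 12 strongest members, up to 3 per gene list, the 5 members with the most sites (ties by signal value), genes with 2 members, and the 2 peaks on either side of the strength threshold; the metabolic lists, the genes with TGATAAGATAA and the base after the site were picked after the values were seen. The alternatives were other promoter windows, site windows, numbers of peaks and matching distances, and leaving out each replicate.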

Additional observations from a re-analysis of the deposited data

Results flagged for a closer look

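In 11 of 65 quantities tested, 1 replicate lay far from the other 3, by the gap to its nearest neighbour over the whole range. All 11 were among the 28 tested ranks of named peaks. Chance alone picks out about 1 in 20 groups when values are evenly spread, and ranks are not, because a weak region can have any rank down to the end of a list.

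Replicate 1 was the weakest at dhp-1 (rank 2690), lea-1 (rank 17396), nhr-119 (rank 6160) and dpy-10 (rank 3592). It was the strongest by a small margin at the stronger atf-7 peak (rank 664). Replicate 2 was the weakest at the second mthf-1 peak (rank 7116), sma-9 (rank 11158) and dpy-2 (rank 21276). Replicate 5 was the weakest at rhy-1 (rank 13761) and wdr-23 (rank 26427), and replicate 4 at the second dpyd-1 peak (rank 15085).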

How the results depend on the processing

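The number of members followed the rule: 256 with a site within 25 bp, 247 with TGATAA only, 148 in the optimal list alone and 1142 over all pooled peaks. The share of members matched in 2 or more replicates was 26.9% against as many peaks per replicate as the optimal list holds, and 25.2% to 47.1% when 1 replicate was left out, which also leaves fewer chances of a match. Differences from peaks without a site turned for distance (54.5 bp with as many peaks per replicate as the optimal list holds, 6.33 to 25.7 bp when 1 replicate was left out, and −13 bp with promoters of 500 bp upstream and 100 bp downstream), for the X chromosome (−4.01 points with the fewer peaks per replicate, −0.183 points with a site within 25 bp, −0.229 to 1.28 points when 1 replicate was left out) and for GAGAGA (−2.29 points with the fewer peaks). None of these differences was past 0.05 in any setting, since 4 replicates cannot reach it, and the causes were not tested. The TGATAA share was 55.7% of sites in the optimal list. The share of G after the site, with alternatives added after the values were seen, was 28.9%, 27%, 35.8% and 37% in the replicates' own lists. No paired analysis was possible because there is 1 group; the tested differences were taken within each replicate.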

Other observations

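Beyond the lists above, gene names were grouped by the letters before the hyphen. Of 173 name classes with 10 genes or more, 49 held a member, and 10 held 3 or more. Outside the families already described, the classes with 3 or more members were dpy genes, named for a short body, with 4 of 25 (dpy-10, dpy-2, dpy-6 and dpy-21), egl genes, named for egg laying, with 3 of 27 (egl-30, egl-4 and egl-27), ttr genes of the transthyretin-related family with 3 of 58, unc genes, named for movement, with 3 of 94 (unc-43, unc-23 and unc-112), and srh chemoreceptor genes with 3 of 218. The shares were 16%, 11.1%, 5.17%, 3.19% and 1.38%, against 1.93% of all protein-coding genes. These classes were read off after the members were seen, the difference between them was not tested, and names given for a mutant form do not mark a shared function.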
